A study of Mus musculus with 23 samples.

Results

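The collagen chain genes are the genes whose symbol is Col, a number, the letter a and a number, each encoding 1 alpha chain of a collagen. Members were taken by symbol alone, and 42 of the 18193 genes measured met the rule. The family itself was chosen with earlier results of these data known. The 42 genes cover 26 collagen types and 82 probe sets, and 27 of them have more than 1 probe set. Each gene is represented by the probe set with the highest mean over all arrays. The collagen genes Col28a1 and Col6a6 were not analysed here. The arrays hold RNA of 8 subclones of the LLC line (Lewis lung carcinoma), a mouse tumour line that grows after transplantation. The subclones are numbered 2, 3, 6, 18, 19, 23, 24 and 28, with 3 arrays each and 2 for subclone 6, which gives 23 arrays. Per the labels, every subclone was obtained from the parental LLC culture by limiting dilution, kept in DMEM with 10% FBS and antibiotics, and placed in serum-free FreeStyle medium for 24 h before lysis. The labels name no genotype, added agent or reference subclone, so each subclone was set against the mean of the other 7 with equal weights, and subclones were also compared in pairs.

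Collagens are the main structural proteins of the extracellular matrix, and their alpha chains wind around one another as trimers. Fibrillar collagens (types I, II, III, V, XI, XXIV and XXVII) form fibrils, most of which bear tension, type IV collagen forms the network of basement membranes, type VI forms beaded microfilaments, and the remaining classes attach to fibrils, anchor epithelia or span the plasma membrane. In solid tumours the collagen matrix comes largely from stromal fibroblasts. The arrays measure RNA, not secreted or assembled protein.

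Each subclone is a single clone line and its arrays are labelled biological replicates. Nothing says how the cultures were separated, so p-values measure the spread between these arrays. Levels are log2(intensity + 16), on which the array medians lay between 5.83 and 5.94, and a fold change on this scale understates the change of dim genes. Brightness depends on the probe set, so levels are compared between subclones and not between genes. Of the marker lists, 6 of 6 endothelial genes were below the array median on all 23 arrays, and their summed intensity was 64.1 to 98.1. Among leukocyte genes, 4 of the 7 measured (Ptprc, Adgre1, Cd3e and Itgam) never reached the array median, while Cd68 and Csf1r were above it on all 23 arrays and Lyz2 on 19. The epithelial genes Krt18 and Epcam were above it on all 23 arrays and Krt8 on 20, whereas Cdh1, Krt7 and Cldn4 never were. Of 7 lung genes, Sftpa1, Sftpd and Nkx2-1 never reached the median, Sftpc did on 1 array and Ager on 4, and Napsa and Sftpb were above it on 17 and on all 23. Of 9 fibroblast genes, Pdgfra, Dpt, Dcn and Tcf21 were above the median on all 23 arrays. Lum was above it on 11 arrays and Pdgfrb and Fap on 3 each, whereas Thy1 and Postn never were. The fibroblast list summed to between 2337.6 and 7843.1 intensity units. Fewer cells of a type and less RNA per cell cannot be told apart in these data.

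The promoter windows of the chains on which the results turn are shown so that gene pairs and their neighbours can be placed. RefSeq sequences of GRCm38.p6, taken from 250 bases before to 50 bases after the annotated start on the strand of the gene, were available for 33 of the 42 genes (36 windows). Capitals mark matches, on either strand, to a TATA motif (TATAAA), the CCAAT box motif (CCAAT), a GC box (GGGCGG) and the motif of AP-1 factors (TGACTCA). Col4a1 (chr8:11312777-11313076, minus strand) and Col4a2 (chr8:11312555-11312854, plus strand) encode the chains of the ubiquitous type IV collagen and lie head to head.
Col4a1: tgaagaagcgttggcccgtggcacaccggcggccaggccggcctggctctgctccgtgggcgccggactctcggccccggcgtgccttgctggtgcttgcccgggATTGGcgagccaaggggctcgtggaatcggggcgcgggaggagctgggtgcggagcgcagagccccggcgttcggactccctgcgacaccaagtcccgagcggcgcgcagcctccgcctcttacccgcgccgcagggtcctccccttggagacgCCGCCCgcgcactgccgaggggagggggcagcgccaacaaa
Col4a2: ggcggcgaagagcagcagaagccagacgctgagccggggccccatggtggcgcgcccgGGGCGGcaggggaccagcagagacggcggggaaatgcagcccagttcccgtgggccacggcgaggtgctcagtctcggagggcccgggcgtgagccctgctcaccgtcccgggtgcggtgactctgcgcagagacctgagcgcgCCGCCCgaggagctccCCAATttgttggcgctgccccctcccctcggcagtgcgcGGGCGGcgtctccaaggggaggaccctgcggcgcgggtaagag
These windows share 78 bases (chr8:11312777-11312854), so the last GGGCGG match of the Col4a2 window is also that of the Col4a1 window, read on the opposite strand. Col4a5 (chrX:141475169-141475468, plus strand) encodes a type IV chain that assembles with other partners, and its annotated start lies 1343 bases from that of Col4a6 on the opposite strand.
Col4a5: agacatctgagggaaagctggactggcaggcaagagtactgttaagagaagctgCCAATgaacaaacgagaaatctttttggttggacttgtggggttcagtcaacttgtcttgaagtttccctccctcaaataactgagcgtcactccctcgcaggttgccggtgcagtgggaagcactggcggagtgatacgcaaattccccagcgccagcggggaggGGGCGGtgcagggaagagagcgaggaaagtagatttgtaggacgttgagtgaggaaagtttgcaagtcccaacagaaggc
Col6a1 (chr10:76725995-76726294, minus strand) and Col6a2 (chr10:76623355-76623654, minus strand) encode the core chains of type VI collagen and stand in tandem as adjacent genes. A further annotated start of Col6a2 has a window of its own (chr10:76623581-76623880), which is not printed.
Col6a1: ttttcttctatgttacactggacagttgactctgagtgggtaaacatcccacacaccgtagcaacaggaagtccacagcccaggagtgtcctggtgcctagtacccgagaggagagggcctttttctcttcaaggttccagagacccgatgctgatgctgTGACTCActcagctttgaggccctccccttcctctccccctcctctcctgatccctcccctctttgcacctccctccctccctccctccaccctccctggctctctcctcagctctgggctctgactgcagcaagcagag
Col6a2: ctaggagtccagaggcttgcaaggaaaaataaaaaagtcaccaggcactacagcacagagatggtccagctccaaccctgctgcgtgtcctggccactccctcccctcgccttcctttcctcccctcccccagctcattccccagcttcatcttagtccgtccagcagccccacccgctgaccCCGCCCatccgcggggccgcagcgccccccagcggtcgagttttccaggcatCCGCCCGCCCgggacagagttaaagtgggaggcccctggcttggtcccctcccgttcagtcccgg
In the Col6a2 window the last matches to GGGCGG overlap. GC content was 74.0% and 73.7% in the Col4a1 and Col4a2 windows, with 37 and 33 CpG dinucleotides. It was 52.7% with 11 CpG in Col4a5, 57.3% with 3 CpG in Col6a1 and 64.3% with 16 CpG in Col6a2, against medians of 52.7% and 7 CpG over all 32851 windows. The 36 collagen windows had medians of 59.8% and 11.5 CpG, so their base composition differed from that of all windows in the motif counts that follow. GGGCGG occurred in 22 of the 36 collagen windows and in 35.7% of all windows, and CCAAT in 13 collagen windows and 37.4% of all. TATAAA occurred in 5 collagen windows and 13.6% of all windows, and TGACTCA in the Col6a1 window alone among the collagens and in 5.2% of all windows. A match describes letters in these windows and shows no binding.

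The first comparison asked which collagen genes differ among the subclones. By the limma F-test, 22 of 42 collagen genes (52.4%) differed at an adjusted p under 0.05, against 61.8% of all genes. Subclone means spanned 1 log2 unit or more in 6 of them (14.3% of the 42), against 12.7% of all genes, and 2 log2 units or more in 3 of them (7.14%), against 2.5%. The median range was 0.46 log2 units over the 42 genes and 0.49 over all genes. The 6 genes were Col4a5 (6.02), Col6a2 (4.14), Col6a1 (2.81), Col8a1 (1.77), Col23a1 (1.07) and Col2a1 (1.02 log2 units). The share spanning 1 log2 unit or more was thus close to that of all genes, and the median collagen gene varied about as much as the median gene. With a pseudocount of 1 in place of 16, which spreads dim genes further, 11 collagen genes spanned 1 log2 unit or more.

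On all 23 arrays, 12 collagen genes were above the array median: Col3a1, Col4a1, Col4a2, Col5a1, Col5a3, Col6a1, Col6a2, Col7a1, Col8a1, Col16a1, Col18a1 and Col22a1. Of these, 11 passed the F-test and Col22a1 did not (adjusted p = 0.072), where 92.8% of all genes equally bright passed. A further 8 genes were above it on some arrays and 4 of them passed (57.3% of all such genes), with Col4a5 on 17 arrays, Col23a1 on 11 and Col2a1 on 3. The remaining 22 genes never reached the array median, with subclone means between 4.09 and 5.69, and 7 of them passed the test (13.7% of all such genes) with ranges of at most 0.76 log2 units. By class, 6 of 11 fibrillar, 3 of 6 type IV, 3 of 6 microfibrillar, 2 of 9 FACIT, 4 of 4 transmembrane, 1 of 3 hexagonal-network and 2 of 2 multiplexin genes differed, as did the anchoring-fibril gene Col7a1. These counts stand beside 61.8% of all genes. Classes also differed in brightness, with 2 of 9 FACIT and 0 of 4 transmembrane genes above the array median on all arrays. FACIT collagens attach to the surface of fibrils, and none of the 9 had a range of 1 log2 unit, where 12.7% of all genes passed with such a range. With so few genes per class, differences between classes were not tested.

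**Figure D1:**
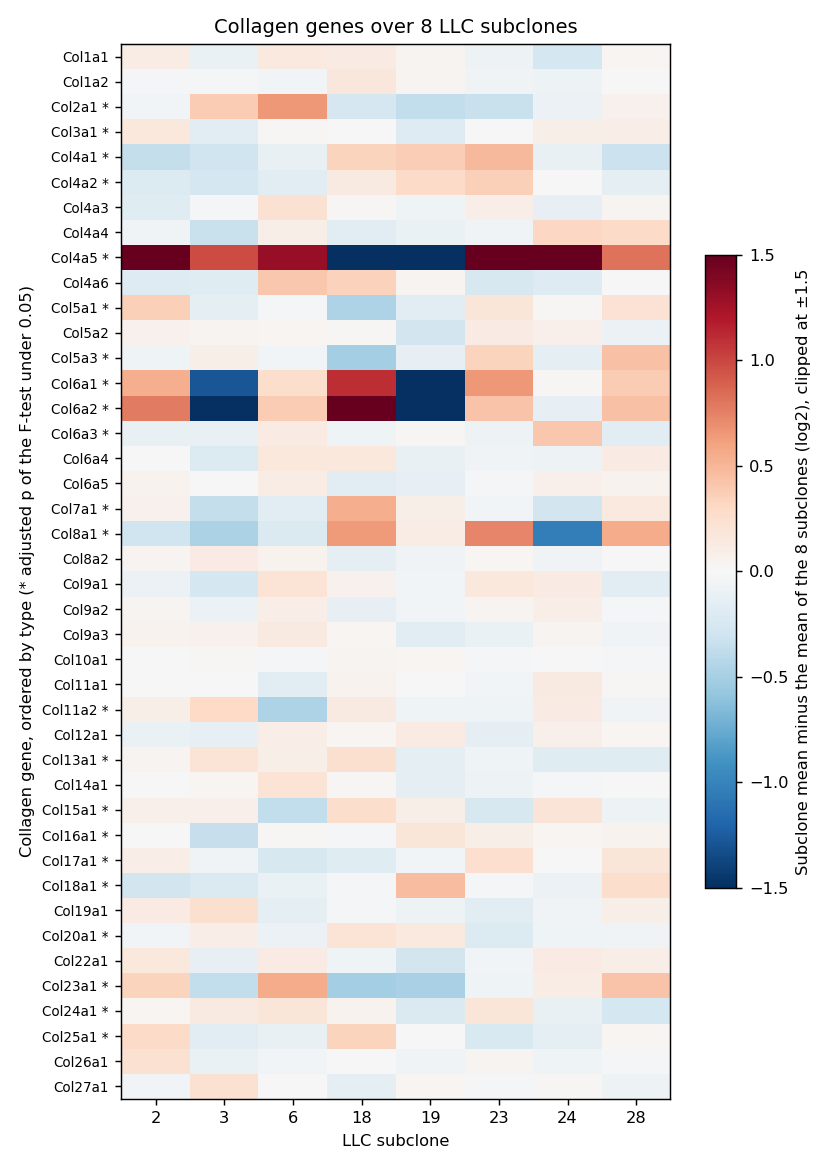
Heat map of the 42 collagen genes (rows, ordered by type) over the 8 LLC subclones (columns), with colour giving the subclone mean minus the mean of the 8 subclones in log2 units, clipped at 1.5 in either direction. Asterisks mark the 22 genes with an F-test adjusted p under 0.05, and the deepest colours lie in Col4a5, Col6a1, Col6a2 and Col8a1.

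Col4a5 encodes the alpha5 chain of type IV collagen, which forms trimers with alpha3 and alpha4 chains or with alpha6 chains in specialised basement membranes such as that of the kidney glomerulus, and which is mutated in human Alport syndrome. Col4a5 measured 4.68, 4.52 and 4.62 on the arrays of subclone 18 and 4.38, 4.40 and 4.50 on those of subclone 19. It measured 10.33, 10.34 and 10.24 in subclone 2, 9.48, 9.61 and 9.67 in subclone 3, 9.94 and 9.90 in subclone 6 and 10.23, 10.18 and 10.14 in subclone 23. In subclone 24 it measured 10.47, 10.49 and 10.38, and in subclone 28 it measured 9.45, 9.39 and 9.46. The arrays of subclones 18 and 19 were all below the array median and all other arrays were far above it, with no overlap. In intensity units Col4a5 lay at 4.79 to 9.57 on the arrays of subclones 18 and 19 and at 653.54 to 1423.17 on the other 17 arrays. Against the mean of the other 7 it differed by -4.58 ± 0.041 log2 units in subclone 18 (SE, n = 3 arrays, 23.9-fold lower, limma adjusted p = 2.16e-22). In subclone 19 the difference was -4.79 ± 0.041 (27.6-fold lower, adjusted p = 1.49e-22). Intensities in both were under the pseudocount of 16, which sets the size of these folds, and each mean of the other 7 holds the other low subclone. With a pseudocount of 1 the differences were -5.69 and -6.31 in subclones 18 and 19, and with 64 they were -3.31 and -3.38.

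Col4a5 was called higher in subclones 2, 3, 6, 23 and 24, by 1.93, 1.11, 1.50, 1.79 and 2.10 log2 units, where the mean of the other 7 contains the low values of both subclones 18 and 19. In pairs, which are free of that mean, the top of the order was subclone 24, then 2, then 23, and neither neighbouring step passed the test (limma adjusted p = 0.0502 and 0.0872). Below them, subclone 23 exceeded subclone 6 by 0.26 ± 0.061, subclone 6 exceeded subclone 3 by 0.33 ± 0.061 and subclone 3 exceeded subclone 28 by 0.16 ± 0.054 log2 units (adjusted p = 0.0023, 0.00071 and 0.0303). Subclone 28 exceeded subclone 18 by 4.82 ± 0.054. The step from subclone 18 to subclone 19 (0.18 ± 0.054, adjusted p = 0.0111) lies among values near the floor of the arrays. A further Col4a5 probe set had a range of 4.41 log2 units, with means of 4.45 and 4.30 in subclones 18 and 19 against 7.56 to 8.71 elsewhere.

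The other type IV chains did not share this pattern. Col4a3 and Col4a4, which encode partner chains of alpha5, never reached the array median and did not pass the F-test (adjusted p = 0.588 and 0.43). Col4a6, the gene next to Col4a5 on the opposite strand, also stayed below the median, at 4.53 to 5.17 (adjusted p = 0.0744). Its correlation with Col4a5 over the 8 subclone means was -0.502.

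Along chromosome X, the measured genes nearest to Col4a5 differed in whether they were low in subclones 18 and 19. Nxt2, which encodes a nuclear RNA export factor, lies nearby and measured 4.20 and 4.17 in subclones 18 and 19, against 6.62 to 7.48 in the other subclones. Psmd10, Atg4a and Tmem164, all above the array median, had ranges of 0.43, 0.36 and 0.33 log2 units. Irs4, between Col4a5 and Nxt2, was dim in all subclones. Acsl4 was lowest in subclone 18 (9.42) but measured 10.25 in subclone 19, against 9.87 to 10.64 elsewhere.

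Genes with both subclones 18 and 19 at least 1 log2 unit below every other subclone mean numbered 16 of 341 on chromosome X (4.69%) and 28 of 11438 on all chromosomes together (0.245%), among genes above the array median in at least 1 subclone. That rule was chosen after the levels were seen and carries no test. The median difference from the other subclones of the 349 X genes above the array median on at least 2 arrays was -0.037 in subclone 18 and 0.035 in subclone 19. Xist, the RNA that coats the inactive X, measured 11.38 and 11.34 in subclones 18 and 19. It also measured 11.18 in subclone 28, where Col4a5 was at 9.43, and 5.44 to 5.82 in the remaining subclones. Its part in the Col4a5 levels was not tested.

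**Figure D2:**
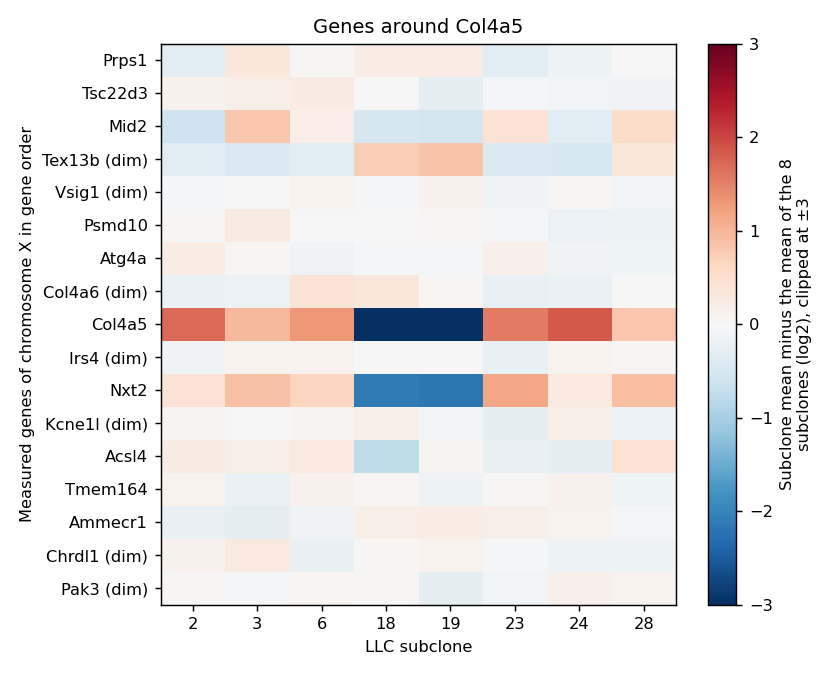
Measured genes of chromosome X in gene order around Col4a5 (rows) over the 8 LLC subclones (columns), with colour giving the subclone mean minus the mean of the 8 subclones in log2 units, clipped at 3 in either direction. Genes marked dim never had a subclone mean above the array median, and the strong low values in subclones 18 and 19 are those of Col4a5 and Nxt2.

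By correlation of the 8 subclone means, the genes most like Col4a5 among the 2328 spanning 1 log2 unit or more were Bgn (r = 0.994), Lrch2 (0.993), Alcam (0.991), Prrg1 (0.990) and Armcx2 (0.989). Of these only Alcam, a cell adhesion molecule on chromosome 16, is not on the X. Its range was 1.50 log2 units, against 7.91 for Bgn, the gene of the proteoglycan biglycan. The 8 points of each correlation fall into the low pair and the other 6, so the values describe that split.

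Col6a1 and Col6a2 encode the alpha1 and alpha2 chains of type VI collagen, which need an alpha3-type chain to form the trimer. In human muscle, mutations in either cause Bethlem myopathy and Ullrich muscular dystrophy. Col6a1 measured 8.62, 8.90 and 8.62 in subclone 3 and 8.29, 8.36 and 8.24 in subclone 19, against 11.05, 11.09 and 11.18 in subclone 18. In the remaining subclones it measured 10.52, 10.52 and 10.59 (subclone 2), 10.29 and 10.23 (subclone 6), 10.65, 10.66 and 10.63 (subclone 23), 10.03, 10.05 and 9.95 (subclone 24) and 10.32, 10.39 and 10.40 (subclone 28). The 6 arrays of subclones 3 and 19 lay below all 17 others, and the 3 arrays of subclone 18 lay above all others.

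Col6a2 measured 7.47, 7.70 and 7.38 in subclone 3 and 6.99, 6.82 and 6.80 in subclone 19, against 11.04, 10.92 and 11.08 in subclone 18. Elsewhere it measured 9.89, 9.83 and 9.93 (subclone 2), 9.45 and 9.50 (subclone 6), 9.45, 9.54 and 9.60 (subclone 23), 9.02, 8.95 and 8.96 (subclone 24) and 9.53, 9.51 and 9.58 (subclone 28). Both chains thus separated the same subclones without overlap, with subclones 3 and 19 low and subclone 18 high, and all arrays stayed above the array median. In intensity units, the 6 low arrays lay at 95.48 to 192.01 for Col6a2 and 286.27 to 463.3 for Col6a1. The other 17 arrays lay at 478.81 to 2152.38 for Col6a2 and at 975.12 to 2296.22 for Col6a1.

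Against the mean of the other 7, Col6a2 differed by -2.55 ± 0.054 log2 units in subclone 19 (5.85-fold lower, limma adjusted p = 7.31e-17) and by -1.81 ± 0.054 in subclone 3 (3.51-fold lower, adjusted p = 2.69e-14). It was higher in subclone 18 by 2.18 ± 0.054 (4.55-fold, adjusted p = 3.70e-16). For Col6a1 the differences were smaller, at -1.94 ± 0.048 in subclone 19 (3.83-fold lower, adjusted p = 7.38e-16), -1.46 ± 0.048 in subclone 3 (2.75-fold lower, adjusted p = 1.13e-13) and 1.27 ± 0.048 in subclone 18 (2.41-fold higher, adjusted p = 1.30e-13). In pairs, subclone 3 exceeded subclone 19 for Col6a1 (0.42 ± 0.063, adjusted p = 1.99e-05) and for Col6a2 (0.65 ± 0.071, adjusted p = 4.66e-07). Among the middle subclones, the steps between subclones 28 and 23 and between 23 and 6 did not pass for Col6a2 (adjusted p = 0.930 and 0.697). For Col6a1, the steps between subclones 23 and 2 and between 28 and 6 did not pass (adjusted p = 0.223 and 0.268).

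**Figure D3:**
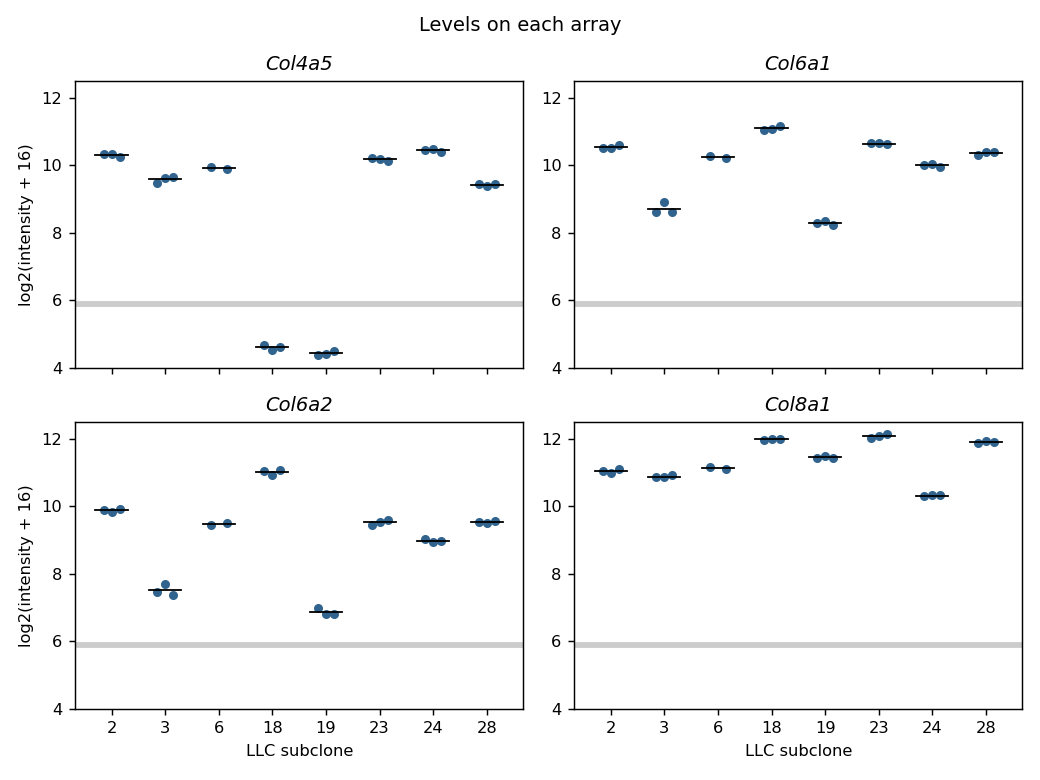
Levels of Col4a5, Col6a1, Col6a2 and Col8a1 on each of the 23 arrays, as log2(intensity + 16), by LLC subclone; each point is an array, each line a subclone mean, and the grey band spans the array medians. Col4a5 lies below the band in subclones 18 and 19 and between 9.43 and 10.45 as subclone means elsewhere, while Col6a1 and Col6a2 are lowest in subclones 19 and 3 and highest in subclone 18.

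Chains of the same collagen type correlated to different degrees. Over the 8 subclone means, Col6a1 and Col6a2 correlated at r = 0.983, and Col4a1 and Col4a2 at r = 0.960. Col5a1 and Col5a3, which were also above the array median on all arrays, correlated at r = 0.702. These points share arrays, and the values are descriptions. The slope of Col6a2 on Col6a1 was 1.33 log2 units per log2 unit, so Col6a2 moved further. Centred over the subclones, Col6a1 minus Col6a2 was -0.80 in subclone 18, 0.53 in subclone 19 and 0.31 in subclone 3. It lay between -0.23 and 0.23 in the others. The remaining type VI genes were dim: Col6a3, which encodes the usual partner of both, never reached the array median, and its means of 5.12 to 5.69 were highest in subclone 24 and lowest in subclone 28 (adjusted p = 0.0242). Col6a4 and Col6a5, which encode alternatives to the alpha3 chain, did not pass the F-test (adjusted p = 0.0877 and 0.778).

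**Figure D4:**
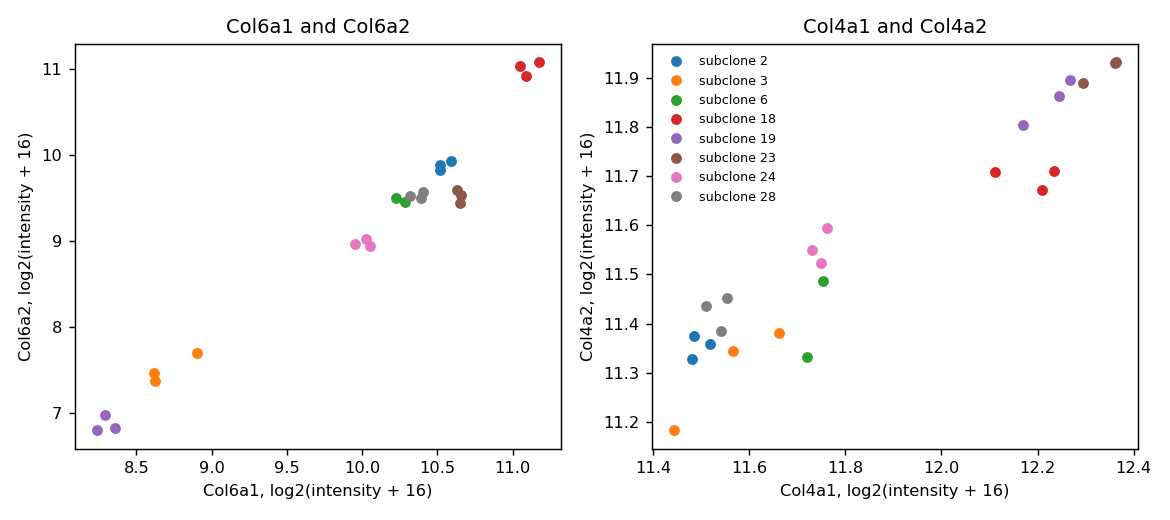
Levels of Col6a2 against Col6a1 (left) and of Col4a2 against Col4a1 (right) on each of the 23 arrays, as log2(intensity + 16), coloured by LLC subclone. The Col6 genes spread over 2.81 and 4.14 log2 units of subclone means, with subclones 19 and 3 at the lower left and subclone 18 at the upper right, and the Col4 genes over 0.85 and 0.61.

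Genes beside Col6a1 and Col6a2 on chromosome 10 did not have their pattern. Pcbp3, the next measured gene, was lowest in subclone 18 (8.16) and measured 8.83 and 8.53 in subclones 3 and 19. Col18a1, also nearby, was highest in subclone 19 and correlated with Col6a1 at r = -0.375. Over 568 genes of chromosome 10, chosen by the same brightness rule, the median difference from the other subclones was -0.082 in subclone 3, 0.177 in subclone 18 and 0.236 in subclone 19. Its part in the Col6 levels was not tested. After Col6a2, the genes most like Col6a1 were Mex3a (r = 0.954), Ttyh3 (0.944), Zfp799 (0.911) and Mbnl3 (0.905), with ranges of 1.05 to 1.17 log2 units. They lie on chromosomes 3, 5, 17 and X.

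Col4a1 and Col4a2, the chains of the ubiquitous basement membrane collagen, were bright everywhere and varied little beside Col4a5. Col4a1 averaged 12.34 ± 0.038 in subclone 23, 12.23 ± 0.051 in subclone 19 and 12.18 ± 0.065 in subclone 18, against 11.49 to 11.75 in the other 5 (SD, n = 3 arrays). Col4a2 averaged 11.92 ± 0.024, 11.85 ± 0.047 and 11.70 ± 0.021 in subclones 23, 19 and 18, against 11.30 to 11.56 in the others. The same subclones were highest for both chains on these probe sets, and their F-test adjusted p-values were 1.70e-11 and 5.71e-09. The gap of subclones 18 and 19 depended on the probe set: on another bright Col4a1 probe set (r = 0.783), subclone 23 averaged 11.68, subclones 19 and 18 averaged 11.21 and 11.18, and the others 10.87 to 11.09. The largest single contrast was Col4a1 in subclone 23 (0.56 ± 0.037, limma adjusted p = 8.65e-10), which is under the 1 log2 unit required for a call. Both lie on chromosome 8, where the median difference of 641 genes above the array median on at least 2 arrays was 0.243 in subclone 23, 0.119 in subclone 19 and 0.013 in subclone 18. Its part in these levels was not tested. In subclones 18 and 19 the low Col4a5 thus stood beside Col4a1 and Col4a2 levels near the top of their order.

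Col8a1 encodes a short chain of type VIII collagen, which forms hexagonal networks beneath endothelia and in vessel walls. Col8a1 measured 10.30, 10.33 and 10.34 in subclone 24, and the lowest and highest of the other 20 arrays were 10.86 and 12.15. Subclone 24 therefore lay below all others, and it differed from the mean of the other 7 by -1.19 ± 0.031 log2 units (2.28-fold lower, limma adjusted p = 3.89e-15). At the top, the steps from subclone 23 (12.09) to 18 (11.99) and from 18 to 28 (11.92) did not pass (adjusted p = 0.0693 and 0.141). Subclone 19 followed at 11.47, subclones 6 and 2 at 11.14 and 11.05, and subclone 3 at 10.89. The step from subclone 6 to subclone 2 did not pass (adjusted p = 0.207). The other 2 probe sets of Col8a1 had ranges of 1.79 and 1.72 log2 units, and both were also lowest in subclone 24.

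Several genes beside Col8a1 on chromosome 16, though not all, were also lowest in subclone 24. Filip1l measured 10.89 there, against 11.06 or more elsewhere, and Dcbld2 measured 9.60, against 10.09 to 11.41. Cmss1 measured 8.367 in subclone 24, against 8.005 to 8.591 elsewhere, and St3gal6 was lowest in subclone 19 (8.30). The median difference of 372 genes of the chromosome, chosen by the same brightness rule, was -0.245 in subclone 24, 0.208 in subclone 23 and 0.186 in subclone 28. In those subclones this shift runs the same way as Col8a1 and is smaller than its difference. It also ran the same way in subclone 18 (0.080, Col8a1 0.73) and in subclones 2, 3 and 6 (-0.037 to -0.035). In subclone 19 it ran the opposite way (-0.133, Col8a1 0.12). Its part in the Col8a1 levels was not tested. Col8a2, the partner chain, was dim in every subclone (4.46 to 4.72, adjusted p = 0.396).

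The fibrillar collagens were split between bright and dim genes. Col3a1, a collagen of soft tissues and vessel walls, had intensities between 10716.15 and 13881.07, which were 65.5% to 84.8% of the highest value on the same array. On that probe set its means ranged from 13.41 in subclone 19 to 13.76 in subclone 2, only 0.35 log2 units. A less bright Col3a1 probe set had a range of 1.80 log2 units, with 9.70 in subclone 3 and 10.40 in subclone 19, against 10.93 to 11.50 in the other 6. Over the 8 means this probe set correlated with Col6a1 at r = 0.861 and the brighter one at r = 0.795. The size of the Col3a1 difference thus depended on the probe set, and whether the brighter one was limited at the top of its scale was not tested.

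Col5a1 and Col5a3, chains of the type V collagen that regulates fibril assembly, were lowest in subclone 18 at 10.99 and 9.10. Against the mean of the other 7, Col5a1 differed there by -0.53 ± 0.042 log2 units (limma adjusted p = 5.72e-09) and Col5a3 by -0.58 ± 0.068 (adjusted p = 9.95e-07), both under the size required for a call. Their highest means were 11.81 in subclone 2 for Col5a1 and 10.05 in subclone 28 for Col5a3. Probe sets disagreed for Col5a1: another above the array median had its lowest mean in subclone 3 (8.36) and measured 9.01 in subclone 18, and its correlation with the one used was 0.118. Col5a2, the partner chain of both, was dim (4.90 to 5.29, adjusted p = 0.496). Col1a1 and Col1a2, the chains of type I collagen of skin and bone, did not pass the F-test (adjusted p = 0.239 and 0.849). Col1a1 stayed below the array median on all arrays, with means of 4.51 to 4.91, and Col1a2 was close to it, at 5.91 to 6.15. Col2a1, the cartilage collagen, was highest in subclone 6 (6.02 ± 0.10, SD, n = 2) and lowest in subclone 19 (5.01 ± 0.11, n = 3), and it exceeded the array median on only 3 arrays.

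The remaining bright chains had ranges under 1 log2 unit. Col18a1, whose product carries endostatin at its C-terminal end, averaged 12.58 in subclone 19 and 12.38 in subclone 28, against 11.84 to 12.10 in the others (adjusted p = 5.32e-09). Col7a1, the anchoring fibril collagen of skin, was highest in subclone 18 (7.80 ± 0.13) and lowest in subclone 3 (6.89 ± 0.20), a range of 0.91. Col16a1, a FACIT collagen, was highest in subclone 19 (11.02) and lowest in subclone 3 (10.49). Subclone 3 thus had the lowest mean for Col7a1 and Col16a1 and was next to lowest for both Col6 genes.

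The transmembrane collagens Col13a1, Col17a1, Col23a1 and Col25a1 all passed the F-test, but Col23a1 alone exceeded the array median on any array, and the call for Col13a1 (adjusted p = 0.0449) was lost in 19 alternative settings. Col23a1 was highest in subclone 6 (6.41) and subclone 28 (6.27), and lowest in subclones 18 (5.34), 19 (5.36) and 3 (5.48), with an adjusted p of 1.34e-07. Its other probe sets had wider ranges of 1.78 and 1.48 log2 units, and their correlations with the one used were 0.981 and 0.930. Col4a5, Col6a2, Col8a1 and Col23a1 together had 6 other probe sets, and all 6 passed the F-test with correlations of 0.930 to 0.998. Col6a1 and Col2a1, which also spanned 1 log2 unit or more, had only 1 probe set each and could not be compared in this way. Probe sets agreed less over the 12 genes above the array median on all arrays: 8 of them had 11 other probe sets, of which 8 passed, and correlations ran from -0.648 (Col22a1) to 0.998.

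Subclone by subclone, the calls at an adjusted p under 0.05 and a difference of at least 1 log2 unit fell on 4 collagen genes in all. Subclone 19 had 3 lower collagen genes (Col4a5, Col6a1 and Col6a2), where 0.83% of all genes were lower, and none higher, where 0.885% were. Subclone 18 had Col6a1 and Col6a2 higher, where 0.857% of all genes were higher, and Col4a5 lower, where 1.79% were lower. Subclone 3 had Col6a1 and Col6a2 lower (0.407% of all genes) and Col4a5 higher (0.528%), a call that ended with a pseudocount of 64 and with the mean of all probe sets. Subclone 24 had Col8a1 lower (0.687%) and Col4a5 higher (0.357%). In subclones 2, 6 and 23 Col4a5 was the one gene called, higher in each, where 0.478%, 0.407% and 0.555% of all genes were higher. None was called lower there, where 0.627%, 0.115% and 0.577% of all genes were lower. Subclone 28 had no collagen call by limma, where 0.973% of all genes were higher and 0.346% lower, and 12 of its 42 collagen genes passed the adjusted p alone, 9 higher and 3 lower, where 19.2% of all genes were higher and 18.2% lower at that threshold.

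Over the 28 pairs of subclones there were 54 collagen calls (92 with a pseudocount of 1), which is 4.59% of the tests of collagen genes, against 2.41% of the tests of all genes. In single pairs, 0.555% to 4.5% of all genes were called. Col6a2 was called in 17 pairs, Col4a5 and Col6a1 in 13 each, Col8a1 in 8, Col23a1 in 2 and Col2a1 in 1. Subclones 6 and 19 differed in the most collagen genes, 5 (2.33% of all genes were called), namely Col4a5, Col6a1, Col6a2, Col23a1 and Col2a1. Subclones 18 and 19, which share the low Col4a5, differed in Col6a1 by 2.81 ± 0.063 log2 units and in Col6a2 by 4.14 ± 0.071, the 2 collagen genes called in that pair (2.94% of all genes). Subclones 3 and 19, which share low Col6 genes, had 1 call among the collagens, Col4a5, which differed by 5.16 ± 0.054 (3.05% of all genes). Their differences in Col6a1 and Col6a2 passed the adjusted p but were under 1 log2 unit. In 7 pairs, all among subclones 2, 6, 23, 24 and 28, no collagen gene was called by limma, where 0.956% to 2.48% of all genes were.

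Enzymes and partners of the collagens were read from 5 lists, whose counts stand beside 61.8% of all genes passing the F-test (92.8% of those above the array median on every array) and 12.7% passing and spanning 1 log2 unit or more. Of the collagen folding and modification genes, which hydroxylate, fold and export the chains in the endoplasmic reticulum, 21 of 23 measured passed the F-test and 9 spanned 1 log2 unit or more. In subclone 18, 4 of them were lower and 1 was higher than in the mean of the other 7, where 1.79% of all genes were lower and 0.857% higher. The lower ones were Plod1 (-1.61 ± 0.056, limma adjusted p = 5.03e-14) and Plod2 (-1.41 ± 0.054), which are lysyl hydroxylases, P4ha2 (-1.25 ± 0.064), a prolyl 4-hydroxylase subunit, and P3h4 (-1.04 ± 0.042). The higher one was P3h2, a prolyl 3-hydroxylase (1.03 ± 0.083). The median difference of the list in subclone 18 was -0.35 log2 units, against 0.006 over all genes. Plod1 averaged 8.55 in subclone 18, against 9.84 to 10.77 elsewhere. In all other subclones together, 1 gene of the list was called, P4ha3, lower in subclone 2. The collagen chaperone gene Serpinh1 had a range of 0.30 log2 units. Plod2, P4ha2, P3h2, P3h4, P4ha3 and Serpinh1 were named after their values were seen.

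Of 12 measured processing and cross-linking genes, 9 passed the F-test, against 61.8% of all genes, and 3 were lower in subclone 18 (1.79% of all genes). Loxl3, a lysyl oxidase that starts collagen cross-links, averaged 8.18 in subclone 18, against 9.89 to 10.85 elsewhere, a difference of -2.25 ± 0.038 (limma adjusted p = 1.70e-18). Tgm2, transglutaminase 2, averaged 6.86 in subclone 18 and was called lower there (-1.51 ± 0.056), and it averaged 9.35 in subclone 24, where it was called higher (1.33 ± 0.056). Pcolce2, an enhancer of procollagen C-proteinase, was the other gene lower in subclone 18 (-1.16 ± 0.044) and was named after its value was seen. Subclone 18 thus combined the highest Col6a1 and Col6a2 levels with the lowest Plod1, Loxl3 and Tgm2 levels.

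Among receptors for collagen, 8 of 13 measured genes passed the F-test, of which 5 spanned 1 log2 unit or more and none spanned 2. The receptor tyrosine kinase genes Ddr1 and Ddr2 and the integrin gene Itgb1 were above the array median on all arrays, with ranges of 0.62, 0.59 and 0.59 log2 units. Calls against the mean of the other 7 were Itga1, higher in subclone 3 (1.11 ± 0.12) and lower in subclone 18 (-1.16 ± 0.12), and Antxr1, lower in subclone 19 (-1.16 ± 0.044). Antxr1 encodes a receptor reported to bind type VI collagen, and its mean in subclone 3, the other subclone low in the Col6 genes, was 8.64, against 8.02 in subclone 19 and 8.90 to 9.78 elsewhere. These 5 receptor genes were named after their values were seen.

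Of the collagen-degrading protease genes, 6 of 10 measured passed the F-test and 4 spanned 1 log2 unit or more, with Mmp13 and Mmp9 the widest single ranges of the 5 lists. Mmp13, collagenase-3, averaged 11.22, 11.02, 11.03 and 10.30 in subclones 2, 3, 6 and 28 and was called higher in each of them. It averaged 7.28, 6.22 and 7.67 in subclones 18, 19 and 23, where it was called lower, and 8.60 in subclone 24. Mmp9, a gelatinase, was lowest in subclone 18 (5.28) and subclone 3 (5.85) and highest in subclone 28 (8.98), against 7.12 to 8.17 in the remaining 5. Subclones 18, 19 and 23, the lowest for Mmp13, were the highest for Col4a1 and Col4a2. Mmp14, a membrane-anchored collagenase named after its values were seen, was bright throughout, with a range of 0.62 log2 units.

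Of the basement membrane partners, 11 of 16 measured genes passed the F-test. Nid2, a linker of laminin and type IV collagen, averaged 7.09 in subclone 18, against 4.10 to 4.36 elsewhere, a difference of 2.85 ± 0.091 (limma adjusted p = 1.26e-14). Its paralogue Nid1 was lowest in subclone 18 (12.24), against 12.55 to 13.02 elsewhere. Tinagl1 averaged 8.96, 8.73 and 8.40 in subclones 19, 23 and 18, against 6.84 to 7.45 in the others, which is the split seen for Col4a1 and Col4a2. Lama4, a laminin chain gene, averaged 6.31 in subclone 28, against 4.24 to 5.36 elsewhere. The laminin genes Lamb1 and Lamc1 were above the array median on all arrays, with ranges of 0.32 and 1.40 log2 units. Nid1, Lamb1 and Lamc1 were named after their values were seen.

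**Figure D5:**
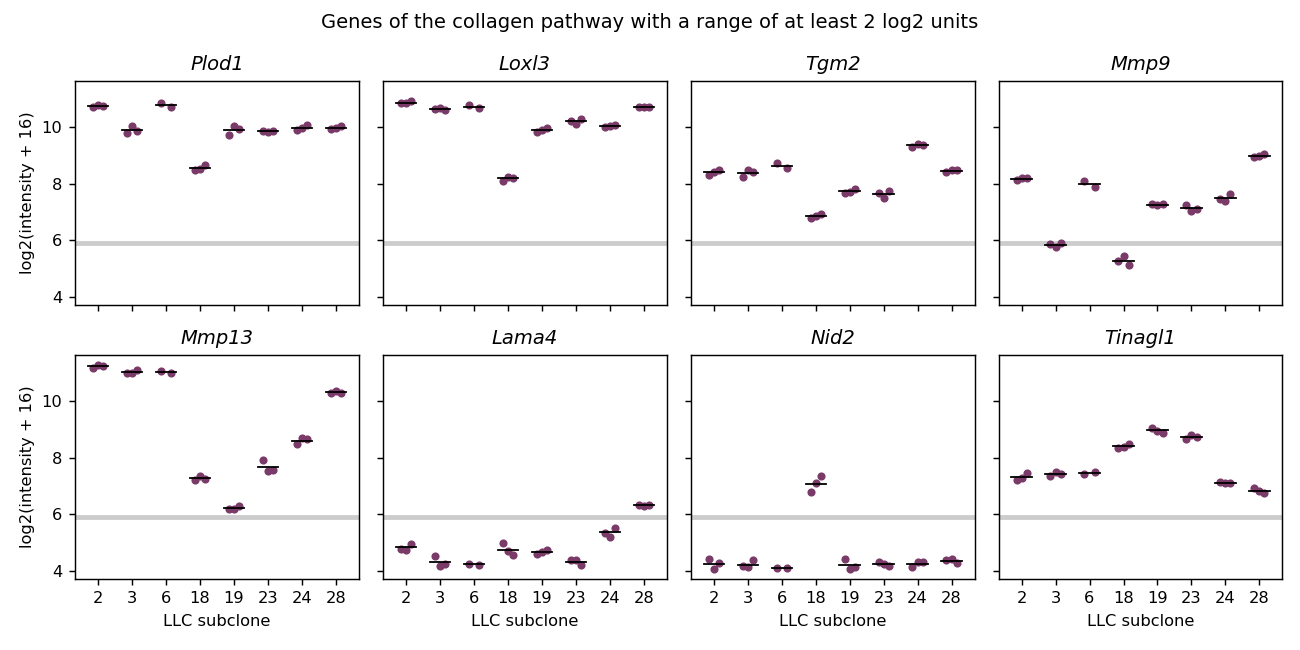
Levels on each of the 23 arrays, as log2(intensity + 16), of the 8 listed genes with an F-test adjusted p under 0.05 whose subclone means span 2 log2 units or more, by LLC subclone; points are arrays, lines subclone means, and the grey band spans the array medians. Plod1, Loxl3 and Tgm2 are lowest and Nid2 highest in subclone 18, and Mmp13 is high in subclones 2, 3, 6 and 28.

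Marker genes were called in subclones with collagen calls and also in subclone 28, which had none. In subclone 18 the fibroblast list was mixed by limma, with Pdgfrb higher (3.47 ± 0.090 log2 units) and Dcn (-1.83 ± 0.055) and Pdgfra (-1.03 ± 0.039) lower. Of the 7 epithelial genes, Krt8 alone was called there, as lower (-5.14 ± 0.045). Krt18 also had its lowest mean in subclone 18 (10.82), whereas Epcam had its highest there (7.99). In subclone 19 Dcn (-2.26 ± 0.055) and Lum (-1.05 ± 0.072) were lower. Lum averaged 4.74 there and was about as dim in subclones 3 (4.81) and 23 (4.86), with its highest mean in subclone 2 (7.03). In subclone 3 Dpt (-1.30 ± 0.057) and Pdgfrb (-1.01 ± 0.090) were lower and Dcn measured 10.08. Pdgfrb was dim outside subclone 18 (8.19), at 4.26 in subclone 3 and 4.46 to 5.46 in the others. For Pdgfrb in subclone 3, the mean of the other 7 holds the high value of subclone 18. Fibroblast genes were also called higher in subclone 2 (2 genes) and in subclone 28 (3 genes), where no Col6 gene was called. Dcn averaged 12.20 and 11.93 in these subclones. Epithelial genes were called higher in subclone 3 (1 gene) and subclone 6 (2 genes). Of the 7 measured leukocyte genes, Cd68 and Lyz2 were called higher in subclone 19, Cd68 higher in subclone 3 and Cd68 lower in subclone 18. Cd68 averaged 8.66, 8.59 and 6.14 in subclones 19, 3 and 18, the reverse of the Col6 order in these subclones, and was also called higher in subclone 28 (mean 8.94) and lower in subclone 24 (mean 6.50). The part of these differences in the collagen levels was not tested.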

How the data were processed

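Total RNA of 8 LLC subclones was hybridised as biotinylated cRNA to Affymetrix arrays, per the labels. The deposited values are linear intensities, 1 per probe set and array, between 0.61 and 17068.52, with array medians of 40.69 to 45.55. How the authors summarised and scaled them, and on which genome build, is not given in the sources used here. Of 45101 probe sets, 64 controls, 932 with several symbols and 9160 not in the probe annotation were left out, and 34945 with 1 symbol gave 18193 genes. Symbols were updated by Entrez identifier for 34754 probe sets, which changed none. Gene order, chromosomes and promoters come from RefSeq tables of GRCm38.p6.

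Each of the 9010 genes with more than 1 probe set kept the probe set with the highest mean over all arrays. A model with 1 coefficient per subclone was fitted to log2(intensity + 16) with limma 3.58.1 in R 4.3.3 (15 residual degrees of freedom), and p-values were adjusted by Benjamini-Hochberg over all genes. A gene was called in a contrast at an adjusted p under 0.05 and a difference of at least 1 log2 unit. The fit was tested on simulated data. The collagen genes and the gene lists were chosen with earlier results of these data known. Levels on each array are given for collagen genes with a range of at least 2 log2 units, and listed genes were named at that range. Alternatives were pseudocounts of 1 and 64, a filter on low values, the mean of all probe sets, quantile normalization, a trended robust eBayes, a replicate block and leaving out each array. For arrays, their number limits the precision.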

Additional observations from a re-analysis of the deposited data

How the results depend on the processing

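The 14 called contrasts of single collagen genes kept their direction and stayed under an adjusted p of 0.05 in all 431 recomputed values. Counts of collagen genes stayed within 1.5 times the reported count in 595 of 603 values. The exceptions came from settings that change the weight of dim values or the probe set. With a pseudocount of 1, 11 genes spanned 1 log2 unit or more in place of 6, subclone 6 had 2 genes higher and 2 lower in place of 1 and 0, subclone 23 had 1 lower in place of 0, subclone 28 had 1 higher in place of 0, and the pairs gave 92 calls in place of 54. With a pseudocount of 64, and with the mean of all probe sets, subclone 3 had 0 genes higher in place of 1. Leaving out each array in turn gave 20 to 24 genes past the F-test, 4 to 7 spanning 1 log2 unit or more, 3 spanning 2 or more, and 51 to 56 calls in pairs. Between subclones, deviations from the subclone means correlated at -0.278 to 0.187 (median -0.007) for arrays with the same replicate number. For arrays with different numbers they correlated at -0.187 to 0.278 (median 0.001). Of 23 arrays, 9 correlated best with an array of their own number. Deviations cancel within each subclone, which ties these values together, so they cannot decide whether arrays of a number shared a batch. With the replicate number as a block, 23 collagen genes passed the F-test in place of 22, Col4a6 being the gain (adjusted p = 0.0312), and 53 calls were made in pairs. The next-brightest probe set of each gene, an alternative chosen after seeing the data, gave 22 genes past the F-test and 7 spanning 1 log2 unit or more. Quantile normalization moved no median of all genes by 0.1 log2 units. The F-test call of 13 genes changed in at least 1 setting, most often for Col13a1 (19 settings), Col22a1 (7), Col25a1 (6) and Col4a6 (6), all but Col22a1 below the array median on every array. No detection calls were used, so values under the array median have no firm order.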
